A study of Mus musculus with 6 samples.

Results

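Of 16022 protein-coding genes in the authors' gene table for pancreatic islets of 24-day-old mice, 12 were near the floor in every control library and well above it in every Dpy30 knockout library: Slc37a2, Xpnpep2, Apoa1, Srpk3, Slc22a2, Wif1, Anxa10, Mc5r, Clec12b, Umodl1, Frmpd1 and Asb15. They are the genes whose scaled count (reads per gene brought by the authors to a common scale between libraries) was at most 24 in each of 3 control libraries, at least 60 in each of 3 knockout libraries, and at least 3 times as high in the lowest knockout library as in the highest control library. They were chosen by these scaled counts, the measure described here, so the differences between the groups are given as a description without a test. The same table held 2499 protein-coding genes at or below 24 in every control library. Of these, 2057 were at or below 24 in every knockout library too, 58 reached 60 in 1 or 2 of the knockout libraries, and the 12 reached it in all 3. Turned round, with knockout islets low and control islets high under the same limits, 13 protein-coding genes met the limits.

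The 6 libraries hold polyadenylated RNA from islets of male C57BL/6 mice, 3 labelled Dpy30 knockout and 3 labelled control, 1 mouse each, with 100 to 200 hand-picked islets per mouse. Dpy30 is a core subunit of the COMPASS complexes, which add methyl groups to lysine 4 of histone H3 (H3K4). The question of the series is how far the maturing endocrine cells of young islets need H3K4 trimethylation. No source used here gives the Cre driver, the deleted part of the gene or the genotype of the control mice.

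Trimethylated H3K4 marks the start sites of active genes, above all those in stretches rich in CpG, while many genes that a cell type does not use lack the mark and are held by Polycomb complexes, DNA methylation or the absence of their activators. Mature beta cells keep a number of genes of other tissues low. The 12 genes belong mostly to other organs: Apoa1 to liver and gut, Xpnpep2 and Slc22a2 to kidney, Anxa10 to stomach, Srpk3 and Asb15 to striated muscle, Umodl1 to olfactory and vomeronasal tissue, Clec12b to leukocytes, Mc5r to exocrine and skin glands, and Slc37a2 to macrophages. Wif1 is a secreted signalling inhibitor of cartilage, lung and brain, and Frmpd1 a scaffold protein known from retina and nervous tissue.

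Library sizes ran from 17131515 to 23976598 estimated reads in knockout islets and from 24575889 to 25354384 in control islets. The targeted gene differed in its transcripts: those that lack exon 4 of Dpy30, 143 bp long, held 82.2, 81.0 and 80.5% of its reads in knockout replicates 1 to 3, against 5.24, 0.438 and 3.78% in control replicates 1 to 3, the exon being the one with the largest difference. Summed over transcripts Dpy30 had 31.9, 53.2 and 30.7 CPM (reads scaled to library size) in knockout islets and 25.6, 30.2 and 31.8 CPM in control islets, with no call (log2 fold change 0.40, adjusted p = 0.298, edgeR quasi-likelihood test). On the length-scaled measure it had 118, 119 and 111 TPM (a length-scaled share of transcripts) in knockout islets and 45.6, 44.8 and 56.2 TPM in control islets, without overlap. All 16 islet endocrine markers on a list of hormones, granule proteins and transcription factors were present, and together they held 289539 to 376271 TPM in knockout islets and 514759 to 614132 TPM in control islets. In knockout replicate 2 a single predicted gene, Gm42418, held 14.7% of all reads, against 0.0990 to 0.236% in the other 5 libraries. Without that library the ratio of mean scaled counts of the 12 genes changed by factors of 0.767 (Apoa1) to 1.26 (Wif1).

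The promoter windows of these genes were mostly poor in CpG, which the choice of genes did not use. RefSeq entries were matched for 11 of the 12 genes, each running from 250 bases before to 50 after the RefSeq start in GRCm38.p6. In Asb15, Clec12b and Slc37a2 the RefSeq start lay 27928, 371 and 324 bases from that of the transcript with most knockout reads. Their windows do not hold the start of that transcript, so their CpG values describe the RefSeq start only. The following 4 windows show the range, with CpG dinucleotides in capitals: Xpnpep2 (chrX:48108475-48108774, plus strand) has 0 of them, Apoa1 (chr9:46228380-46228679, plus strand) 4, Slc37a2 (chr9:37255689-37255988, minus strand) 7 and Frmpd1 (chr4:45184656-45184955, plus strand) 46.
Xpnpep2: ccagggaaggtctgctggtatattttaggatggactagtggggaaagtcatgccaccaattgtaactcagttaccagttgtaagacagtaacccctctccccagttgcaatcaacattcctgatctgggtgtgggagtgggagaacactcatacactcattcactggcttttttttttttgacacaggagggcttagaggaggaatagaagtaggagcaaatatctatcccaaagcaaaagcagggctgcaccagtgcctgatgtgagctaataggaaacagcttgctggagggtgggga
Apoa1: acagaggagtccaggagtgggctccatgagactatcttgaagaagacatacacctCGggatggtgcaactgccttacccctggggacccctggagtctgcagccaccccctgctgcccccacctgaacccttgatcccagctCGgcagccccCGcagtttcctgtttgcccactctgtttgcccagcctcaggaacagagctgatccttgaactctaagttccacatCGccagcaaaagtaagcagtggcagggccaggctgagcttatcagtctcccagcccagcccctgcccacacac
Slc37a2: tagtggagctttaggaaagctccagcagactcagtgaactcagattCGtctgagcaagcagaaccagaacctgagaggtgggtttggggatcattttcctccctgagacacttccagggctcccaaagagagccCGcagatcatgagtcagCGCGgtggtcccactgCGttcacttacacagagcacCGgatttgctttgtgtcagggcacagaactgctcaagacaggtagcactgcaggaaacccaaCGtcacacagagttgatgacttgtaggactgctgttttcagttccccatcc
Frmpd1: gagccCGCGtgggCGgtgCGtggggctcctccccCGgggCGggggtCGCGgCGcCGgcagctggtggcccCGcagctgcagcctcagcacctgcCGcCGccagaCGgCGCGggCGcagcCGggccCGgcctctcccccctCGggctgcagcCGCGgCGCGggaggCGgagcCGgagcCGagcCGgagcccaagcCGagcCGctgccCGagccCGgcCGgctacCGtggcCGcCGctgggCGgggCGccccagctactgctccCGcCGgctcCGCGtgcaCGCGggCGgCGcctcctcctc

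Of the 11 windows, those of Frmpd1 (CpG observed/expected ratio 0.884, GC 83.3%) and Wif1 (0.848, GC 63.0%) were CpG-rich, taken as a ratio of at least 0.6 with a GC content of at least 50%. That is 18.2%, beside 45.1% of 21262 windows of all protein-coding genes. Among the 2129 windows of genes at or below 24 in every control library, the pool from which the 12 came, the share was 20.2%, and among the 12892 windows of genes above 24 in every control library it was 65.5%. The share among the 12 genes was therefore near that of other genes low in control islets. The median ratio was 0.234 in the 11 windows, 0.307 in the windows of control-low genes and 0.749 in those of control-expressed genes.

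**Figure D1:**
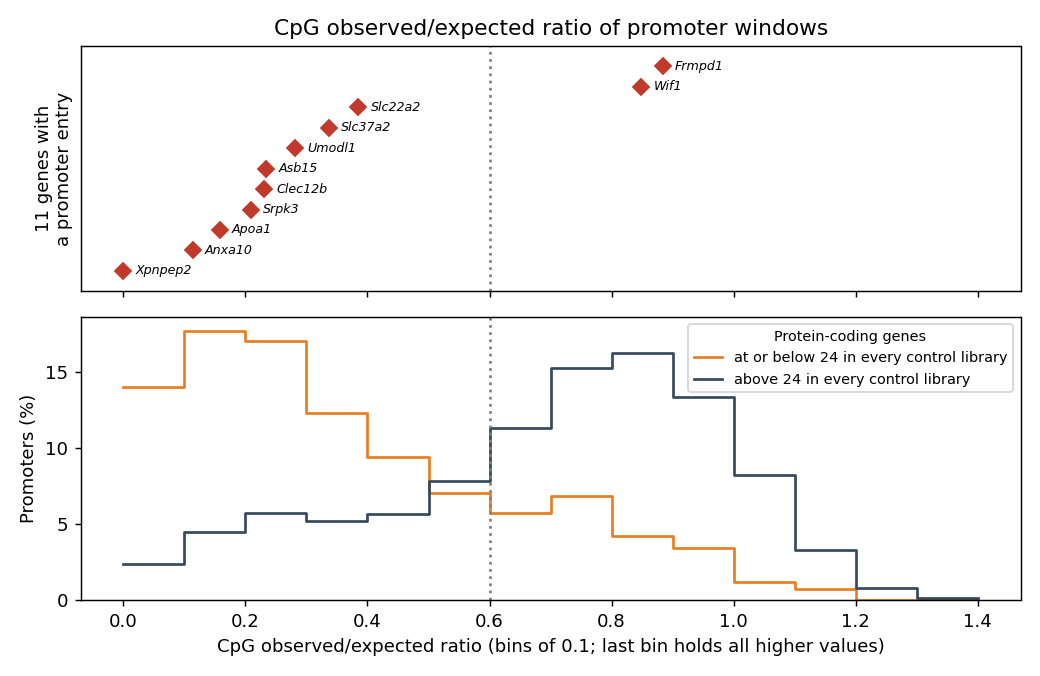
CpG observed/expected ratio (horizontal axis) of the promoter windows of 11 of the 12 genes (top, 1 diamond per gene) and the percentage of windows per bin for protein-coding genes at or below 24, or above 24, in every control library (bottom). The dotted line is the limit of 0.6; Frmpd1 and Wif1 lie right of it and 9 genes left of it, where most control-low genes lie too.

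The TATA box, TATAAA, on which many tissue-specific genes start transcription, was found on either strand in 4 of the 11 windows (36.4%), those of Srpk3, Anxa10, Asb15 and Wif1, beside 12.6% of all protein-coding windows and 16.0% of those of control-low genes. In Anxa10 and Srpk3 a copy on the gene's strand begins 32 and 31 bases before the RefSeq start. The match in Wif1 lies 232 bases before the start and on the other strand. The Asb15 window stands at the outer start, 27.9 kb from that of the transcript to which its reads were assigned. Its matches begin 167 bases before that outer start and at positions 19 and 21 counted from it. The windows of Anxa10 and Srpk3 follow with each TATAAA, read on either strand, in capitals; in Srpk3 a copy on the gene's strand 62 bases before the start overlaps one on the other strand. CCAAT was found on either strand in 2 windows (18.2%), those of Xpnpep2 and Slc22a2, beside 38.2% of all. Such matches describe letters and show no binding. The windows lie at chr8:62123144-62123443 (minus strand) and chrX:73774155-73774454 (plus strand).
Anxa10: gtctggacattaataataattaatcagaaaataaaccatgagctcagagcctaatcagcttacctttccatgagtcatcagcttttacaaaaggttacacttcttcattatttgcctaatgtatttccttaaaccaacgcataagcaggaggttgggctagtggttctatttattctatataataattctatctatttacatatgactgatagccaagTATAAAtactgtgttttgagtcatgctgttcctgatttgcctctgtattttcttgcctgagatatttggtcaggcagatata
Srpk3: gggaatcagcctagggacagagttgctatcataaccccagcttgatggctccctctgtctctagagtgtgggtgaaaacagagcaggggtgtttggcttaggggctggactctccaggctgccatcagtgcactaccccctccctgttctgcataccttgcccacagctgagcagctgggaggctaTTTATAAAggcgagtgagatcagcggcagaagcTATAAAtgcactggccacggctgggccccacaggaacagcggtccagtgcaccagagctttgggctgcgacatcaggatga

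Across the 12 genes the scaled counts ran from 62.4 to 1140.0 in knockout libraries and from 0 to 22.8 in control libraries. On the length-scaled measure the means ran from 0.934 TPM (Umodl1) to 14.3 TPM (Apoa1) in knockout islets, against 0.0202 (Umodl1) to 0.438 TPM (Srpk3) in control islets. Among 21806 protein-coding genes ranked by mean TPM the 12 stood between percentiles 42.2 and 73.6 in knockout islets and between percentiles 25.3 and 39.8 in control islets. They were thus low rather than silent in control islets: 11 of them had reads in all 3 control libraries, and the control reads of a gene summed to 7 (Umodl1) to 65 (Srpk3). The ratio of mean scaled counts ran from 4.95 (Frmpd1) to 205 (Xpnpep2), with a median of 12.1.

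**Figure D2:**
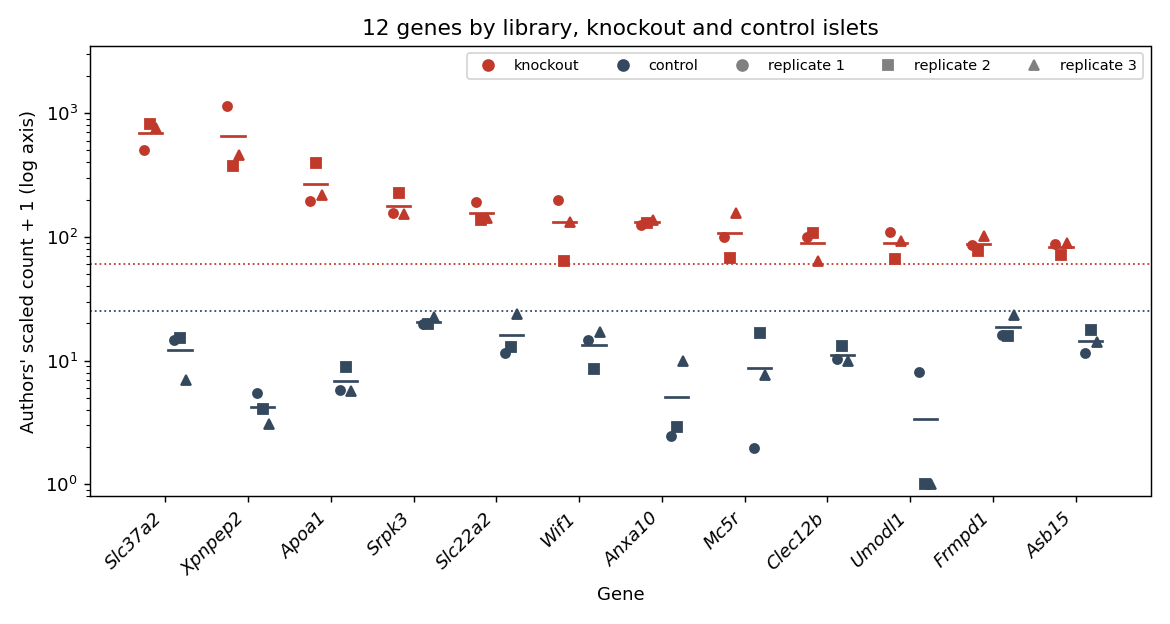
Scaled count of each of the 12 genes in each library (log axis, 1 added), with bars at the group means, knockout islets left and control islets right within a gene. The dotted lines are the limits of 60 and 24 that chose the genes, and the gap between the groups is widest for Xpnpep2 and narrowest for Frmpd1.

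All 12 passed edgeR's filter on low counts, which the knockout libraries alone were enough for, and all 12 were called higher, beside 4.1% of 16430 tested genes called higher and 5.84% called lower (9.95% in either direction). Since the same contrast chose the genes, nothing is read from that count. The edgeR log2 fold changes ran from 1.97 to 7.64 with a median of 3.65, beside a median of 0.01 over all tested genes.

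Xpnpep2 (ENSMUSG00000037005, X chromosome 48108725 to 48136981 in GRCm38) encodes a membrane-bound aminopeptidase that cleaves before proline in peptides such as bradykinin. By library, scaled counts were 1140.0, 374 and 458 in knockout replicates 1 to 3, against 4.47, 3.10 and 2.07 in control replicates 1 to 3. Knockout replicate 1 stood far above the other two, and the control libraries lay close together. The mean was 10.9 ± 8.44 TPM in knockout and 0.0399 ± 0.0164 TPM in control islets (SD, n = 3 each). Of its knockout reads 94.5% were assigned to the transcript Xpnpep2-201, which starts at the annotated start. The soluble and mitochondrial relatives Xpnpep1 (log2 fold change 0.27, adjusted p = 0.293) and Xpnpep3 (0.12, adjusted p = 0.646) were not called by edgeR.

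Slc37a2 (ENSMUSG00000032122, chromosome 9, 37227585 to 37255738) encodes a phosphate-linked sugar phosphate antiporter of the endoplasmic reticulum. Scaled counts were 506, 821 and 762 in knockout replicates 1 to 3, against 13.6, 14.1 and 5.98 in control replicates 1 to 3. The knockout libraries were of like height, and the lowest was 35.8 times the highest control library. The mean was 8.07 ± 1.77 TPM in knockout and 0.105 ± 0.0404 TPM in control islets (SD, n = 3 each). The reads were split between 2 coding transcripts, with 57.8% in Slc37a2-202 and 41.8% in Slc37a2-201. The other members of the family were well expressed in both groups and not called: Slc37a1 averaged 24.98 TPM in knockout and 28.0 TPM in control islets, Slc37a3 26.8 TPM in knockout and 28.1 TPM in control islets, and Slc37a4, the glucose-6-phosphate translocase, 38.9 TPM in knockout and 37.3 TPM in control islets. Their adjusted p-values in the edgeR test were 0.116, 0.143 and 0.510.

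Apoa1 (ENSMUSG00000032083, chromosome 9, 46228580 to 46230466) encodes the main protein of high-density lipoprotein. Its scaled counts were 196, 394 and 216 in knockout replicates 1 to 3, against 4.77, 7.92 and 4.72 in control replicates 1 to 3. Knockout replicate 2 was the highest, and the lowest knockout library was 24.7 times the highest control library. The mean of 14.3 ± 1.90 TPM in knockout islets, against 0.258 ± 0.0543 TPM in control islets (SD, n = 3 each), was the highest of the 12. All of its knockout reads fell to Apoa1-201. Of 15 apolipoprotein genes 6 were tested, and besides Apoa1 itself Apoa2 (log2 fold change 1.12, adjusted p = 0.0413, edgeR) and Apod (1.12, adjusted p = 0.0263) were called higher. The call of Apoa2 held in 0, and that of Apod in 1, of 6 refits with 1 library removed each. Of 11 other tested genes on a list of 20 liver plasma protein genes, 1 was called higher (Apoa2) and 3 lower, the retinol carrier Rbp4 (-1.63, adjusted p = 0.00177), Ambp (-0.72) and Serpind1 (-1.72). The call of Rbp4 was kept in all 6 of those fits and those of Ambp and Serpind1 in 0. Summed over the 20 list genes the level was 154 to 205 TPM in knockout and 261 to 366 TPM in control islets. Rbp4 alone averaged 114 TPM in knockout and 283 TPM in control islets.

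Slc22a2 (ENSMUSG00000040966, chromosome 17, 12584132 to 12628488) encodes the organic cation transporter OCT2, which takes up cations from blood in kidney tubules. By library, scaled counts were 189.9, 135 and 141 in knockout replicates 1 to 3, against 10.5, 11.8 and 22.8 in control replicates 1 to 3. By scaled count the knockout libraries differed little, and control replicate 3 stood near the limit of 24. In TPM the knockout replicates 1 to 3 were less even, at 5.26, 2.39 and 3.79. The mean was 3.81 ± 1.44 TPM in knockout and 0.292 ± 0.146 TPM in control islets (SD, n = 3 each). Its 24 relatives by symbol include 7 that were tested, of which 2 were called lower by edgeR, Slc22a21 (-1.36, adjusted p = 0.0488) and Slc22a23 (-0.66, adjusted p = 0.0425). Their calls were kept in 0 and 1 of the 6 fits without 1 library.

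Anxa10 (ENSMUSG00000031635, chromosome 8, 62057042 to 62123150) encodes a calcium- and phospholipid-binding annexin of gastric epithelium. Scaled counts were 125, 129 and 136 in knockout replicates 1 to 3, against 1.47, 1.93 and 8.90 in control replicates 1 to 3. By scaled count the knockout libraries were the most alike of the 12 genes, with a coefficient of variation of 4.16%, while control replicate 3 lay above the other two. In TPM the knockout replicates 1 to 3 were less even, at 5.68, 3.75 and 5.98. The mean was 5.14 ± 1.21 TPM in knockout and 0.133 ± 0.141 TPM in control islets (SD, n = 3 each). Of its knockout reads 66.8% were assigned to coding transcripts, with 34.3% in Anxa10-201, and 33.2% to Anxa10-203, annotated as a retained intron. Of 9 other tested annexins 3 were called higher in the edgeR test: Anxa1 (log2 fold change 2.29, adjusted p = 0.0142), Anxa2 (1.31, adjusted p = 0.00925) and Anxa3 (0.86, adjusted p = 0.0265). Leaving out control replicate 3 ended the call of Anxa1 (adjusted p = 0.0557), that of Anxa3 was kept in 1 of the 6 fits without 1 library, and that of Anxa2 was kept in all 6.

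The calls among brush border and transport genes of kidney and gut were mixed. Of 9 tested list members other than Xpnpep2, 2 were called higher, the tight junction gene Cldn2 (log2 fold change 2.93, SE 0.20, adjusted p = 0.000741, edgeR) and the endocytic receptor gene Lrp2 (3.32, adjusted p = 0.0223, kept in 1 of the 6 fits without 1 library). The peptidase genes Anpep (-2.26, adjusted p = 0.00243) and Dpp4 (-1.95, adjusted p = 0.000741) and the microvillus gene Vil1 (-1.25, adjusted p = 0.00484) were called lower, in all 6 of those fits as well. Summed over the 25 list genes the level was 45.1 to 93.8 TPM in knockout and 105 to 128 TPM in control islets, and 6 of them, Slc22a6, Aqp2, Kap, Fabp1, Sis and Alpi, were at 0 in all 6 libraries. Tubule genes on the list differed: Slc22a6 and Aqp2 were at 0, and Cubn and Slc34a1 were too low to test. Lrp2, called higher, was itself low, at 0.0538 TPM in knockout and 0.00969 TPM in control islets.

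Wif1 (ENSMUSG00000020218, chromosome 10, 121033960 to 121100650) encodes a secreted protein that binds Wnt ligands and keeps them from their receptors. Its scaled counts were 198, 62.4 and 132 in knockout replicates 1 to 3, against 13.8, 7.61 and 15.9 in control replicates 1 to 3. The knockout libraries were uneven, with replicate 2 just above the limit of 60. The mean was 3.33 ± 2.17 TPM in knockout and 0.241 ± 0.0991 TPM in control islets (SD, n = 3 each). Of 6 other tested secreted or membrane Wnt antagonists 2 were called by edgeR, both lower and both secreted Frizzled-like proteins: Sfrp5 fell by 2.09 on the log2 scale (adjusted p = 0.000888), to 9.90 ± 3.08 TPM in knockout islets, against 33.2 ± 2.49 TPM in control islets. Frzb fell by 0.93 (adjusted p = 0.0328). The call of Sfrp5 was kept in all 6 fits without 1 library and that of Frzb in 1.

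Mc5r (ENSMUSG00000007480, chromosome 18, 68337596 to 68342446) encodes a melanocortin receptor that signals through cyclic AMP. By library, scaled counts were 99.0, 66.3 and 155 in knockout replicates 1 to 3, against 0.952, 15.8 and 6.60 in control replicates 1 to 3. Both groups were uneven and did not overlap. The mean was 1.45 ± 0.808 TPM in knockout and 0.0761 ± 0.0679 TPM in control islets (SD, n = 3 each). Of the other 4 melanocortin receptor genes Mc4r alone was tested, at 0.534 TPM in knockout and 1.04 TPM in control islets (log2 fold change -1.17, adjusted p = 0.293, edgeR), while Mc3r had 0 reads in all 6 libraries.

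Clec12b (ENSMUSG00000030158, chromosome 6, 129375515 to 129385874) encodes a C-type lectin receptor of leukocytes that carries an inhibitory signalling motif. Scaled counts were 98.2, 106 and 62.6 in knockout replicates 1 to 3, against 9.35, 12.1 and 8.86 in control replicates 1 to 3. Knockout replicate 3 was the lowest of its group, and the control libraries were alike. The mean was 3.35 ± 0.886 TPM in knockout and 0.307 ± 0.0226 TPM in control islets (SD, n = 3 each). Leukocyte markers overlapped between the groups: the 20 genes of that list summed to 151, 116 and 171 TPM in knockout replicates 1 to 3 and to 141, 133 and 99.3 TPM in control replicates 1 to 3, none of them at 0 in all libraries. Of the 16 tested, Cd68 (log2 fold change 1.61, adjusted p = 0.00889) and Fcer1g (1.16, adjusted p = 0.0360) were called higher and C1qa (-1.08, adjusted p = 0.0266) lower by edgeR. The call of Cd68 was kept in all 6 fits without 1 library, that of Fcer1g in 1 and that of C1qa in 2. Fewer or more cells of a type and less or more RNA per cell cannot be told apart in these bulk libraries.

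Umodl1 (ENSMUSG00000054134, chromosome 17, 30954640 to 31010710) encodes a uromodulin-like protein with a zona pellucida domain. Its scaled counts were 109.5, 65.8 and 91.3 in knockout replicates 1 to 3, against 7.08, 0 and 0 in control replicates 1 to 3. It is the gene of the 12 with control libraries at 0. The mean was 0.934 ± 0.403 TPM in knockout and 0.0202 ± 0.0349 TPM in control islets (SD, n = 3 each). Salmon gave all knockout reads of replicates 1 and 2 to Umodl1-203 and all those of replicate 3 to Umodl1-206, so the transcript in use cannot be settled from these files.

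Srpk3 (ENSMUSG00000002007, X chromosome 73774405 to 73778925) encodes a muscle kinase that phosphorylates serine- and arginine-rich splicing factors. By library, scaled counts were 156, 225 and 152 in knockout replicates 1 to 3, against 18.7, 18.9 and 21.4 in control replicates 1 to 3. The control libraries were even, and the control level in TPM was the highest of the 12. The mean was 4.78 ± 0.212 TPM in knockout and 0.438 ± 0.0630 TPM in control islets (SD, n = 3 each). The retained-intron transcript Srpk3-202 took 19.9% of its knockout reads and the coding Srpk3-201 76.9%. The broadly expressed kinases Srpk1 (log2 fold change -0.06, adjusted p = 0.873) and Srpk2 (-0.31, adjusted p = 0.242) were not called by edgeR.

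Asb15 (ENSMUSG00000029685, chromosome 6, 24528144 to 24573164) encodes an ankyrin repeat protein with a SOCS box, a substrate adaptor of ubiquitin ligases in muscle. Scaled counts were 86.2, 70.5 and 89.0 in knockout replicates 1 to 3, against 10.5, 16.8 and 13.2 in control replicates 1 to 3. Both groups were even by scaled count. The mean was 0.962 ± 0.315 TPM in knockout and 0.122 ± 0.0186 TPM in control islets (SD, n = 3 each). All reads in both groups were assigned to Asb15-202, which starts 27.9 kb inside the annotated gene, so none were assigned to the outer start, 0.131 kb from that of Ndufa5. Of 10 other tested genes of the family, Asb9 was called higher (log2 fold change 1.82, SE 0.30, adjusted p = 0.0101, edgeR), also in all 6 fits without 1 library. Of 24 skeletal and heart muscle genes 7 were tested: sarcalumenin (Srl), a calcium-binding protein of the sarcoplasmic reticulum, was called higher (3.25, adjusted p = 0.00305), also in all 6 fits without 1 library, and Actn2 (-1.24) and Tnnc1 (-1.47) were called lower but in 0 of the 6 fits without 1 library. The list summed to 12.2 to 36.8 TPM in knockout and 13.0 to 20.5 TPM in control islets.

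Frmpd1 (ENSMUSG00000035615, chromosome 4, 45184875 to 45285936) encodes a scaffold with FERM and PDZ domains that binds regulators of G protein signalling. Its scaled counts were 84.5, 76.1 and 100.1 in knockout replicates 1 to 3, against 15.2, 14.9 and 22.6 in control replicates 1 to 3. The groups were closest in this gene, the lowest knockout library being 3.37 times the highest control library. With the estimated counts scaled by TMM or by DESeq2 size factors its highest control library was at 25.9 or 25.3, so that it left the set. The mean was 1.04 ± 0.340 TPM in knockout and 0.166 ± 0.0508 TPM in control islets (SD, n = 3 each). Its relative Frmpd4 was called higher (log2 fold change 2.97, SE 0.43, adjusted p = 0.00602, edgeR), also in all 6 fits without 1 library, at 0.169 ± 0.0651 TPM in knockout and 0.0161 ± 0.00799 TPM in control islets. Frmpd3 was not called (-0.095, adjusted p = 0.925, edgeR), and Frmpd2 was too low to test.

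The knockout libraries did not rank alike across the 12 genes. Replicates 1, 2 and 3 were each the highest for 4 genes, while replicate 2 was the lowest for 7, replicate 1 for 3 and replicate 3 for 2. The coefficient of variation of the scaled count among knockout libraries ran from 4.16% (Anxa10) to 63.9% (Xpnpep2), with a median of 24.4%. In TPM the 12 genes summed to 70.9, 45.2 and 58.2 in knockout replicates 1 to 3 and to 2.03, 1.98 and 2.59 in control replicates 1 to 3. Just inside the limits stood Wif1, Clec12b and Slc22a2. Just outside them stood Jakmip2 (212, 85.9 and 115 in knockout replicates 1 to 3, 11.1, 25.3 and 13.7 in control replicates 1 to 3), Ccdc198 (125, 112 and 177 against 25.3, 13.6 and 21.0, in the same order) and Lgals3 (81.8, 78.3 and 132 against 25.4, 25.1 and 21.9 in that order too), each with a control library above 24.

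Marker genes of other islet cell types moved with the groups for some types and not for others. The 16 mesenchymal genes summed to 336 to 684 TPM in knockout and 141 to 247 TPM in control islets, and the 12 endothelial genes to 323 to 558 TPM in knockout and 194 to 285 TPM in control islets, so neither list overlapped between the groups. TPM is a share of all transcripts, so the lower share of the islet endocrine list in knockout islets raises the TPM of other genes there. In the edgeR fit the median log2 fold change was 0.87 for the mesenchymal and 0.61 for the endothelial list. Of the mesenchymal genes 2 were called higher by edgeR, Pdgfra and Mgp, beside 4.1% of all tested genes. An unadjusted p under 0.05 was found for 13 of 16, a count given without the share over all genes. With the replicate block 12 were called higher and by DESeq2 9, fits that each called 1138 of all genes higher. With no filter on low counts 6 were called higher (841 of all genes), and without knockout replicate 2 it was 5 (550 of all genes). Of the endothelial genes 4 were called higher, and 6 with the replicate block. The 16 acinar genes summed to 2138 to 19252 TPM in knockout and 912 to 3030 TPM in control islets, with overlap. The part of such cells in the levels of the 12 genes was not tested. Of the 4 endothelial calls (Pecam1, Plvap, Esam and Emcn), those of Plvap and Emcn were each kept in 1, that of Esam in 3 and that of Pecam1 in 0 of the 6 fits without 1 library, while Pdgfra and Mgp kept theirs in all 6.

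**Figure D3:**
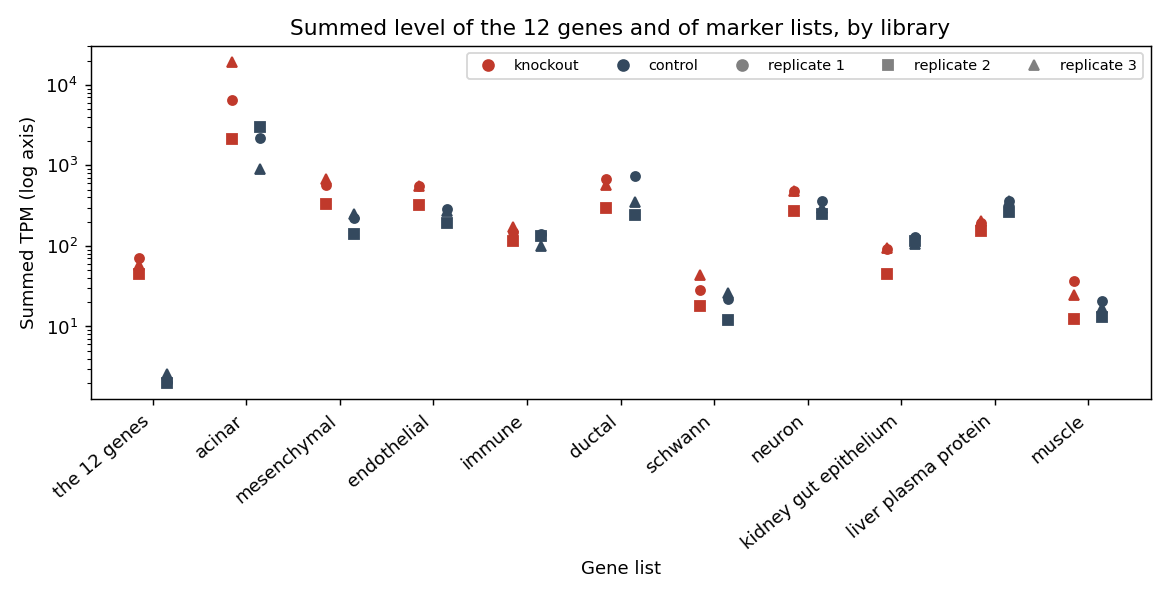
Summed TPM (log axis) of the 12 genes and of 10 marker lists in each library, knockout islets left and control islets right within a list. The 12 genes sum to between 45.2 and 70.9 TPM in knockout and between 1.98 and 2.59 TPM in control islets, a gap that the limits used to choose them require. The mesenchymal and endothelial lists (higher in knockout) and the kidney and gut and the liver lists (lower in knockout) do not overlap between the groups. The other lists do.

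On the chromosomes the 12 genes lay apart from each other. They fall on 8 chromosomes, and the closest pair, Slc37a2 and Apoa1 on chromosome 9, has starts 8.97 Mb apart. The next protein-coding gene on either side was taken as a neighbour, which gives 24 genes, 18 of them high enough to test. Of these 18, 3 were called higher (16.7%) and 1 lower (5.56%) in the edgeR test, beside 4.1% and 5.84% of all tested genes. These are few genes, no test of the share was made, and the count called higher fell to 0 without control replicate 3 and to 1 without control replicate 1 or knockout replicate 1. The median log2 fold change of the 18 was 0.18, beside 0.01 over all tested genes.

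Clec1b, the neighbour upstream of Clec12b on the opposite strand with its start 11.4 kb away, had the largest change of the 18 tested neighbours. It encodes the receptor CLEC-2 of platelets and myeloid cells. It had 1.00, 1.46 and 0.856 TPM in knockout replicates 1 to 3, against 0.0858, 0 and 0.0895 TPM in control replicates 1 to 3, without overlap. The log2 fold change was 4.08 (SE 0.70, adjusted p = 0.0114, edgeR), and leaving out control replicate 3 ended the call (adjusted p = 0.0533). Next along the same lectin cluster, Clec1a was not called (0.67, adjusted p = 0.191), and Clec12a and Clec9a were too low to test, at 0.185 and 0.127 TPM in knockout and 0.118 and 0 TPM in control islets.

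Ndufa5, a subunit gene of respiratory complex I that starts 0.131 kb from the outer start of Asb15 on the opposite strand, had 179, 88.4 and 125 TPM in knockout replicates 1 to 3, against 67.3, 60.4 and 69.4 TPM in control replicates 1 to 3. The groups did not overlap, the log2 fold change was 0.71 (SE 0.15, adjusted p = 0.0249, edgeR), and the call was kept in 2 of the 6 fits without 1 library. Ddx60, an interferon-inducible helicase gene downstream of Anxa10, had 3.93, 3.70 and 3.13 TPM in knockout and 1.25, 1.67 and 1.17 TPM in control replicates 1 to 3. Its log2 fold change was 0.94 (SE 0.23, adjusted p = 0.0376, edgeR), with the call kept in 1 of those 6 fits and lost with an offset for transcript length.

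Glp1r, the receptor for the incretin GLP-1 and the neighbour upstream of Umodl1 on the same strand, went the other way. It had 41.7, 19.9 and 44.9 TPM in knockout replicates 1 to 3, against 86.9, 128 and 82.3 TPM in control replicates 1 to 3, without overlap. Its log2 fold change was -1.91 (SE 0.29, adjusted p = 0.00707, edgeR), and the call was kept in all 12 alternatives tried. The gap between the 2 genes is 13.8 kb. On the other side of Umodl1, the cholesterol transporter gene Abcg1 was not called (-0.60, adjusted p = 0.0879).

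Around the other genes the next neighbours were at floor level or not called. In the apolipoprotein cluster beside Apoa1, Apoc3 had 0.172 ± 0.0244 TPM in knockout and 0.226 ± 0.140 TPM in control islets (SD, n = 3 each), and Apoa4 and Apoa5 had 0 reads in all 6 libraries, so of these 4 genes only Apoa1 was above 1 TPM in any library. Farther along, Zpr1 was called higher (log2 fold change 0.54, adjusted p = 0.0441, edgeR) in 0 of the 6 fits without 1 library, and Sik3 was not called (-0.10, adjusted p = 0.726). Beside Slc22a2, the cation transporter gene Slc22a3 stood at 0.00472 TPM in knockout and 0.00383 TPM in control islets, too low to test. The neighbours of Slc37a2 were Tmem218 (-0.27) and Ccdc15 (-0.57), and those of Srpk3, in a gene-dense part of the X chromosome, were Plxnb3 (0.73) and Idh3g (0.19), with 0.037 kb between Srpk3 and Idh3g. None of these 4 was called by edgeR (adjusted p = 0.195 to 0.417). Those of Xpnpep2 were the peptide hormone gene Apln (log2 fold change 1.48, adjusted p = 0.106) and Sash3 (0.88, adjusted p = 0.350), both not called. Lemd3 and Tbc1d30 beside Wif1, Spock3 beside Anxa10, Rnmt beside Mc5r, and Tomm5 and Trmt10b beside Frmpd1 were not called either, and Mc2r beside Mc5r and Lmod2 beside Asb15 were too low to test.

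**Figure D4:**
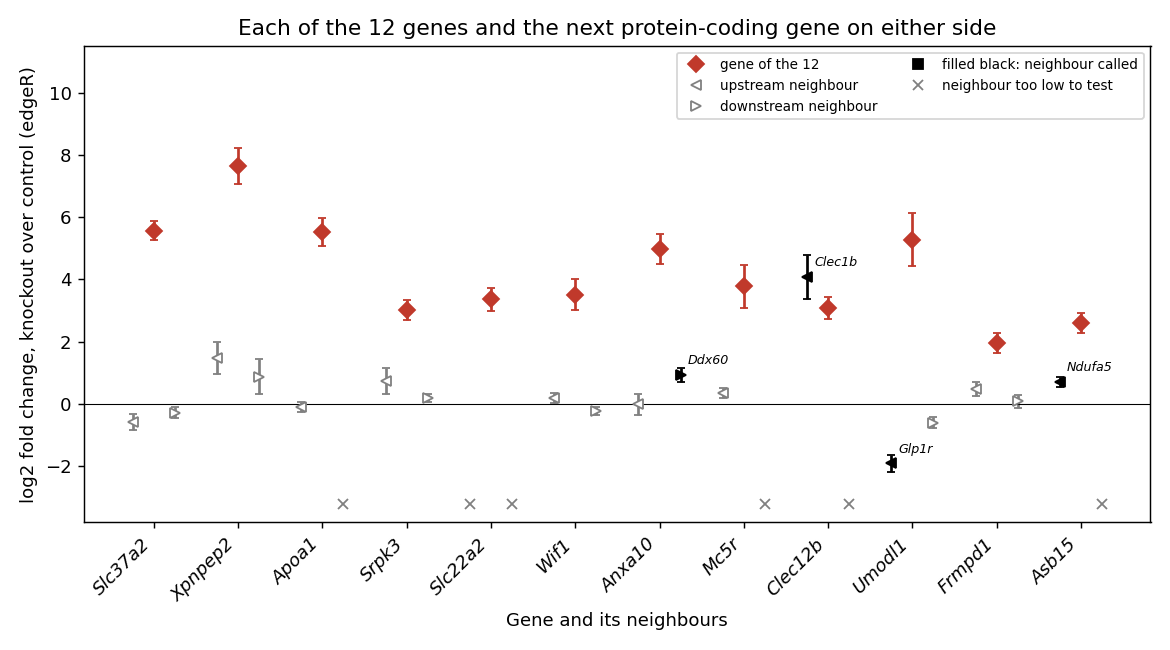
log2 fold change (knockout over control, edgeR, bars are SE) of each of the 12 genes (diamonds) and of the next protein-coding gene upstream (left triangle) and downstream (right triangle). Called neighbours are filled and named: Clec1b, Ddx60 and Ndufa5 above 0 and Glp1r below it; crosses at the bottom mark 6 neighbours too low to test.

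No protein-coding gene overlapped any of the 12. Of 6 annotated non-coding or pseudogene entries that did, the pseudogene Gm10177, on the strand opposite to Slc37a2, alone had more than 1 read in a library, with 1893, 2148 and 1823 estimated reads in knockout replicates 1 to 3 and 1871, 2170 and 3108 in control replicates 1 to 3. The library kit keeps the strand, but no source used here says whether the counting used it.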

How the data were processed

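Polyadenylated RNA of pancreatic islets from 3 Dpy30 knockout and 3 control mice was sequenced, and groups were taken from the sample labels. Per the submitters' processing notes, Trimmomatic, Salmon and DESeq2 were used with GRCm38 (mm10); no source used here gives their versions or settings. The authors deposited, per the file headers, an estimated count, a TPM value and an effective length for each transcript and library. They also deposited a gene table, whose values are a scaled count signal per library (the scaling step is not stated), and a table of their comparison that holds log2 ratios, means and p-values. The deposited scaled counts chose the 12 genes; the columns headed WT were taken as the control libraries by number.

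Transcript counts were summed to genes with GENCODE vM21, rounded, filtered with filterByExpr (minimum count 10), and tested with edgeR 4.0.16 (R 4.3.3; TMM normalization, quasi-likelihood test, Benjamini-Hochberg adjustment over 16430 genes, threshold 0.05, 2 groups without other terms). Fold changes are knockout over control. A fold change between groups was tested on simulated data of 16137 genes, where 25.8% of 2-fold and 83.8% of 4-fold changes were recovered. Each simulated set held 200 changed genes, while 1634 were called in the data. The adjustment depends on that number, so these shares do not give the recovery in the data. Alternatives were DESeq2 1.42.0, limma-voom (limma 3.58.1), other size factors, no filter, an offset for transcript length, a replicate block, leaving out each library, and other limits for choosing genes. Libraries with the same replicate number deviated together (r = 0.427, 0.135 and 0.196, with a limit of 0.1). Knockout replicate 2 and control replicate 3 also passed that limit (r = 0.14), so it did not single out the numbered pairs. The numbers were used as pairs only in the replicate block, and the main test left them out. Where a pairing would come from is not stated in the labels. Transcript counts limit precision in the low control values. p-values measure the spread between 3 mice per group.

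The 12 genes, the gene lists and the tests were chosen with earlier results of these data known. The relatives by gene symbol and the comparison with promoters of control-low genes were added after the 12 genes were known. Genes named are all 12, their neighbours, and called or defining genes of the lists and families. The lists were islet endocrine, liver, kidney and gut, neuron, muscle, germline, immune, mesenchymal, endothelial, acinar, ductal, Schwann, red blood cell, gut hormone, developmental and progenitor genes.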

Additional observations from a re-analysis of the deposited data

How the results depend on the processing

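With 1 library left out, 13 to 18 genes met the limits; the 12 are among them by construction, since fewer libraries set fewer conditions. With a control limit of 12 in place of 24 there were 4 genes, and with 48 there were 24. With a knockout limit of 30 in place of 60 there were 22, and with 120 there were 6. Scaling by TMM gave 15 genes and by DESeq2 size factors 14, each sharing 11 with the 12 and lacking Frmpd1, which is 1 of the 2 genes with a CpG-rich promoter window. Over all genes, edgeR called 674 higher and 960 lower, and leaving out 1 library gave 243 to 550 higher and 464 to 780 lower. DESeq2 called 1138 higher. The fit with the replicate block also called 1138 higher, and in it 4 neighbours were called higher and 1 lower. Of the neighbours, 3 were called higher and 1 lower; leaving out 1 library gave 0 to 2 higher and 1 lower, and the length offset and DESeq2 each gave 2 lower. The cause of these differences was not tested. Depth limits the control values of the 12 genes, which rest on 7 to 65 reads summed over 3 libraries.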

Other observations

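Among genes that are not protein-coding, 2 met the same limits. The antisense gene Hectd2os had scaled counts of 319, 170.2 and 137 in knockout replicates 1 to 3, against 9.65, 4.16 and 12.8 in control replicates 1 to 3. The pseudogene Itih5l-ps had 81.0, 82.1 and 152 in knockout replicates 1 to 3, against 1.10, 3.44 and 9.89 in control replicates 1 to 3.

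The other gene lists gave mixed calls in the edgeR test, and many of the calls depended on single libraries. Of 13 tested gut hormone and neuropeptide genes 6 were called higher and 1 lower, beside 4.1% of all tested genes called higher and 5.84% called lower, with a median log2 fold change of 2.17 beside 0.01 over all tested genes. The 6 fell to 2 without control replicate 1 or knockout replicate 3, to 3 without control replicate 2 or knockout replicate 2, and to 4 without knockout replicate 1. Of the calls in this list, that of Adcyap1 was kept in 0, those of Tac1 and Vip in 1 and that of Npy in 2 of the 6 fits without 1 library. Among 17 tested neuronal genes 3 were called higher and 2 lower, with 1 to 3 higher and 1 or 2 lower in those fits. Among 11 progenitor genes 2 were called higher and 2 lower, with 1 or 2 of each in those fits. Among 10 ductal genes 2 were called higher and 1 lower, with 1 or 2 higher and 0 lower in those fits. Of 13 tested developmental regulators 1 was called higher, Barx2, also in all 6 of those fits, and 3 were called higher with the replicate block.

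Germline genes gave 0 higher and 2 lower calls of 6 tested (3 at an unadjusted p under 0.05; DESeq2 and limma-voom called 2 each), with 0 to 2 lower in the fits without 1 library. The 16 islet endocrine genes gave 0 higher and 3 lower calls (8 at an unadjusted p under 0.05). There were 1 to 4 lower in the fits without 1 library and 6 lower with the replicate block. DESeq2 called 1 higher and 6 lower, beside 1138 of all genes higher and 1397 lower. By limma-voom 5 were called lower, beside 963 of all genes. The fit without knockout replicate 1 also called 1 endocrine gene higher. In the edgeR fit with all libraries and its filter, and by DESeq2 and limma-voom, no acinar gene of 15 tested (10 at an unadjusted p under 0.05), no Schwann gene of 10 (2) and no red blood cell gene of 5 (0) was called. Other edgeR fits called 8 acinar genes higher with no filter on low counts and 1 without knockout replicate 2, and 1 Schwann gene lower with the length offset. The share of all tested genes at an unadjusted p under 0.05 is not given here, so those counts have no background beside them.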
